A study of Mus musculus with 16 samples.

Results

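H3K27ac was profiled in macrophages of ischemic hind limb muscle at 4 and 2 days post-injury (dpi), with 2 CUT&Tag libraries per time point. These 4 libraries, chosen by the mark and time in their labels, are 4 of the 16 libraries of the series, whose other 12 carry H3K4me3, H3K18la or H3K27me3, 4 each. All mice were C57BL6J wild type, and the study's methods describe males of 8 to 12 weeks whose femoral artery was tied and excised. Macrophages were sorted from digested calf muscle of that limb as living CD45+CD11b+F4/80+CD64+ cells. The 4 dpi group thus differs from the 2 dpi group in time after injury, with no uninjured group among the lists, and how many mice stand behind a library is not given in the sources used here. The library numbers name batch S100 for 4 dpi replicate 1 and batch S143 for the other 3, so for replicate 1 batch and time cannot be told apart. The results below are therefore given for the 4 lists and, beside them, for the 3 S143 lists alone.

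H3K27ac is acetylation of lysine 27 of histone H3, written by the acetyltransferases p300 and CBP at active promoters and active enhancers. The same lysine, when trimethylated by Polycomb, marks silenced chromatin, so one histone tail carries one or the other. Promoter acetylation is shared by many cell types, whereas enhancer acetylation is the more variable part and follows signals such as those that turn macrophages of injured muscle from an inflammatory to a restorative state. In CUT&Tag an antibody tethers a transposase to the mark, and the released fragments are sequenced and summarised into peaks. Each peak carries a total signal, the sum of fragment coverage over its bases, and a maximum signal, its highest coverage, neither of them normalised between libraries. Sequencing depth is unknown.

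The 4 dpi lists held 35971 peaks in replicate 1 and 31487 in replicate 2, against 29872 and 24976 peaks in the 2 dpi lists. Both 4 dpi lists were thus longer than both 2 dpi lists, by 6305 peaks on average (exact permutation test, 2-sided p = 0.333, the smallest possible with 2 against 2 libraries). Against the same 2 dpi lists, the S143 list of 4 dpi alone was longer by 4063 peaks. Replicate 1 of 4 dpi stood apart in width, with a median peak of 4250 bp and 204.6 Mb covered. The S143 lists overlapped between the time points, with a median of 1594 bp and 64.7 Mb at 4 dpi, against 1719 and 1218 bp and 65.3 and 37.8 Mb at 2 dpi. Peaks over 10 kb wide numbered 3870 and 167 at 4 dpi, against 151 and 27 at 2 dpi. Of the peaks of the S100 list, 14.3% spanned at least 2 separate peaks of the other 4 dpi list.

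The position of peaks relative to H3K4me3, a mark of active promoters, also differed between the lists. Peaks meeting a region called in all 4 H3K4me3 lists made up 30.7 and 41.0% of the 4 dpi lists, against 43.6 and 51.6% of the 2 dpi lists. Peaks more than 10 kb from any H3K4me3 peak made up 43.9 and 25.2% of the 4 dpi lists, against 22.9 and 17.4% of the 2 dpi lists. Neither measure overlapped between the time points, with differences of -11.7 and 14.4 percentage points (exact permutation, p = 0.333 for both, n = 2 each), and of -6.59 and 5.03 points with the S143 lists. These shares move with the length of the list: the longest list had the fewest peaks at H3K4me3 and the shortest the most. With all lists cut to the length of the shortest, the difference in the share at H3K4me3 was -6.38 points in place of -11.7. Peaks meeting a shared region of H3K27me3, the mark of the trimethylated lysine, were few, at 6.17 and 3.80% in the 4 dpi lists, against 3.79 and 2.94% in the 2 dpi lists. That H3K27ac met H3K4me3 often and H3K27me3 rarely is the placing known for this mark. The macrophage label itself was not checked against marker genes, because the annotation at hand is of another genome build than the lists.

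To compare strength, peaks overlapping by at least 1 bp were merged into 43336 regions, of which 13494 were called in all 4 lists. Each was ranked within a library by its total signal, and the ranks were correlated between libraries as a description across regions. Spearman's rho was 0.789 between the 4 dpi libraries and 0.851 between the 2 dpi libraries. Across time points it was 0.714 and 0.619 for the S100 library, and 0.840 and 0.784 for the S143 library of 4 dpi. The S143 library of 4 dpi therefore ranked its regions more like 2 dpi replicate 1, of its own batch, than like the other 4 dpi library. Over the 16083 regions of the S143 lists, rho was 0.826 and 0.769 across the time points and 0.835 within 2 dpi, a gap of 0.04 on average, against 0.08 with all 6 pairs. Regions at H3K4me3 were ranked alike in all libraries, with rho from 0.701 to 0.877 over 9440 regions. The 1552 regions over 10 kb from any H3K4me3 peak were ranked less alike, with rho from 0.416 to 0.641.

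**Figure D1:**
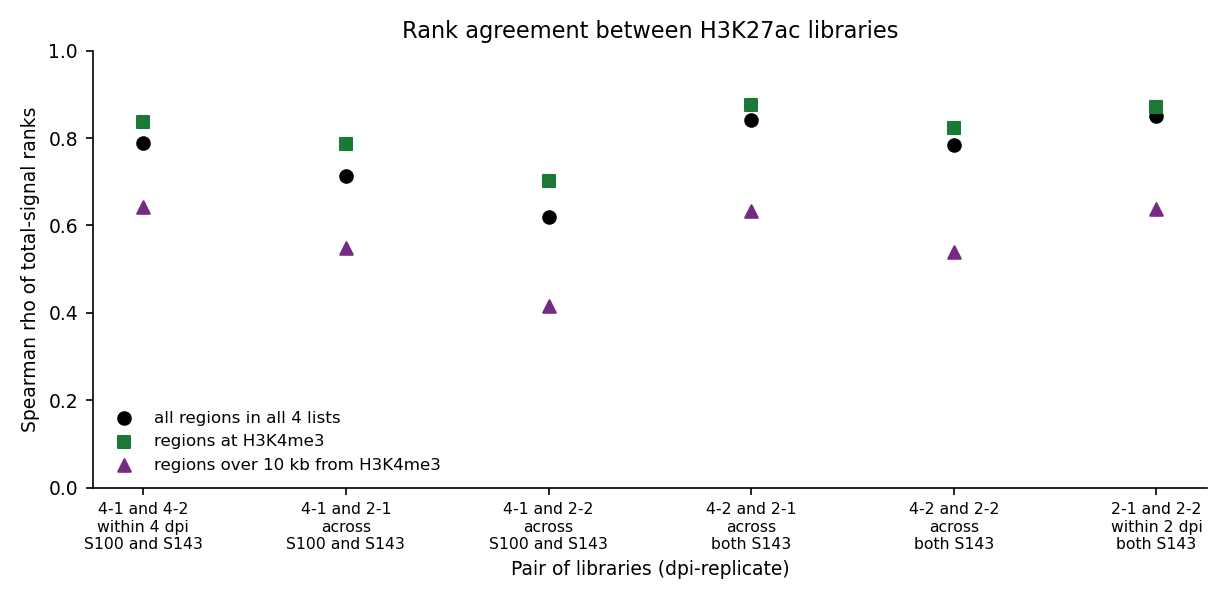
Spearman's rho of total-signal ranks (y axis) for the 6 pairs of H3K27ac libraries (x axis, dpi and replicate number), over all regions in all 4 lists (circles), those at H3K4me3 (squares) and those over 10 kb away (triangles). In every pair the regions away from H3K4me3 lie lowest, and the lowest value, 0.416, belongs to 4 dpi replicate 1 with 2 dpi replicate 2.

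More regions were called at 4 dpi only than at 2 dpi only, in counts that depend on the S100 list. Of 43336 regions, 2527 (5.83%) were called in both 4 dpi lists and neither 2 dpi list (gained), and 305 (0.704%) in both 2 dpi lists and neither 4 dpi list (lost). A further 13497 were called in the S100 list only. With the 3 S143 lists, 7357 of 39547 regions (18.6%) were gained and 1310 (3.31%) lost, where a gain rests on 1 list. Cut to the length of the shortest list, the 4 lists gave 1480 gained and 537 lost regions and the S143 lists 4325 and 1627. Gains outnumbered losses in each of these, while the ratio shrank with equal length. In the S143 sets the 2 counts are unlike, as a gain needs 1 list and a loss needs both 2 dpi lists. In the uncut S143 lists, 5809 regions of 2 dpi replicate 1 only and 2841 of 2 dpi replicate 2 only could not count as lost. The excess of gains in the S143 sets therefore cannot be read as a difference between the time points. In the 4 lists a loss needs a place without a peak in the S100 list. That list covered 204.6 Mb, against 64.7, 65.3 and 37.8 Mb in the S143 lists. Cut to equal length, the 4 dpi lists still covered 65.0 Mb more on average. The excess of gains in the 4 lists cannot be told apart from this wider coverage.

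**Figure D2:**
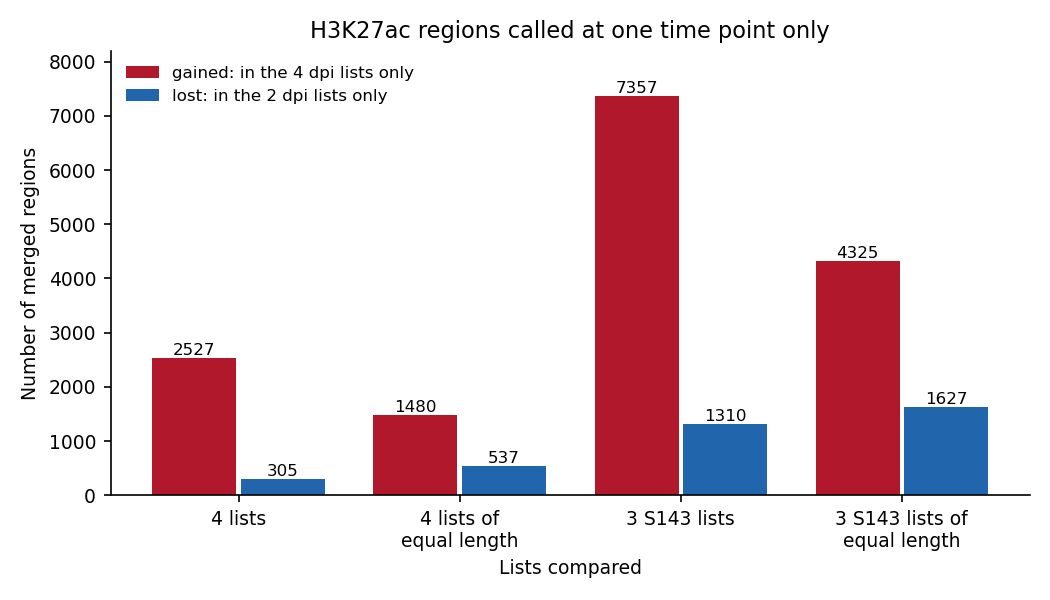
Number of merged H3K27ac regions (y axis) called at 4 dpi only (gained) or at 2 dpi only (lost), for the 4 lists, the 3 S143 lists and both sets cut to equal list length (x axis). Gained regions outnumber lost ones in every set, by 2527 to 305 in the 4 lists and by 4325 to 1627 in the S143 lists of equal length.

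Gained regions lay away from H3K4me3 more often than lost ones. Of the 2527 gained regions 6.37% were at H3K4me3 and 60.0% over 10 kb away, while of the 305 lost regions 23.0% were at H3K4me3 and 28.9% over 10 kb away. Over all 43336 regions these shares were 27.6 and 43.7%. In the S143 lists, 6.62 and 48.1% of the gained regions fell in these classes, against 24.96 and 30.7% of the lost and 33.8 and 29.6% of all regions. Gained regions sat low in the S143 list of 4 dpi, at a median percentile of 24.3 among its peaks, and near the middle of the S100 list, at 47.1. Lost regions sat at 27.2 and 25.9 in the 2 dpi lists.

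A few gained regions were strong. The one with the highest lower percentile lay on chromosome 2 from 130564127 to 130575472 (GRCm39, as are all positions here). Percentiles were 85.8 and 88.9 in the 4 dpi lists, and the 2 dpi lists had no peak there. The region on chromosome 19 from 37673519 to 37682060 followed, at 93.6 and 85.3. It was the only one of the 6 leading gained regions where H3K4me3 was called in both 4 dpi libraries and neither 2 dpi library. H3K18la and H3K27me3 were called there in both libraries of each time point. The leading lost region, on chromosome 11 from 59935941 to 59937716, stood at percentiles 55.6 and 64.6 of the 2 dpi lists and held H3K4me3 in all 4 libraries. Another of the 6 leading lost regions, on chromosome 11 from 70299910 to 70301685, held H3K4me3 in both 4 dpi libraries and neither 2 dpi library. None of the 6 leading lost regions was over 3.3 kb wide.

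Among regions present at both time points, rank changed past the threshold at few. Ranks were turned into normal scores, and the shift, 4 minus 2 dpi on that scale, was tested with limma over all 13494 regions at an adjusted p under 0.05. In the 4 lists 24 regions rose (0.178% of those tested) and 1 fell (0.00741%), while at an unadjusted p under 0.05 there were 1118 higher (8.29%) and 767 lower (5.68%) at 4 dpi. In the 3 S143 lists 22 of 16083 regions rose (0.137%) and 45 fell (0.280%), with 761 (4.73%) and 770 (4.79%) at an unadjusted p under 0.05. That fit has 1 library at 4 dpi, whose spread is assumed to be that of the 2 dpi libraries. Both 4 dpi libraries ranked above both 2 dpi libraries at all 24 rises, as they did at 20.8% of all tested regions, and the rises were chosen by that rank. Of the 24, 23 could be tested in the S143 lists, which are 3 of the same 4 libraries. All 23 had a positive shift there (median 1.49), a direction that their choice largely fixed in advance. The counts depended on the measure: with the maximum signal in place of the total, and with a variance neither trended nor robust, limma called 0 regions of the 4 lists (1415 and 1523 at an unadjusted p under 0.05). Leaving out 1 library at a time gave 279 rises and 5 falls without 2 dpi replicate 1, 93 and 0 without 2 dpi replicate 2, and 33 and 26 without 4 dpi replicate 2.

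**Figure D3:**
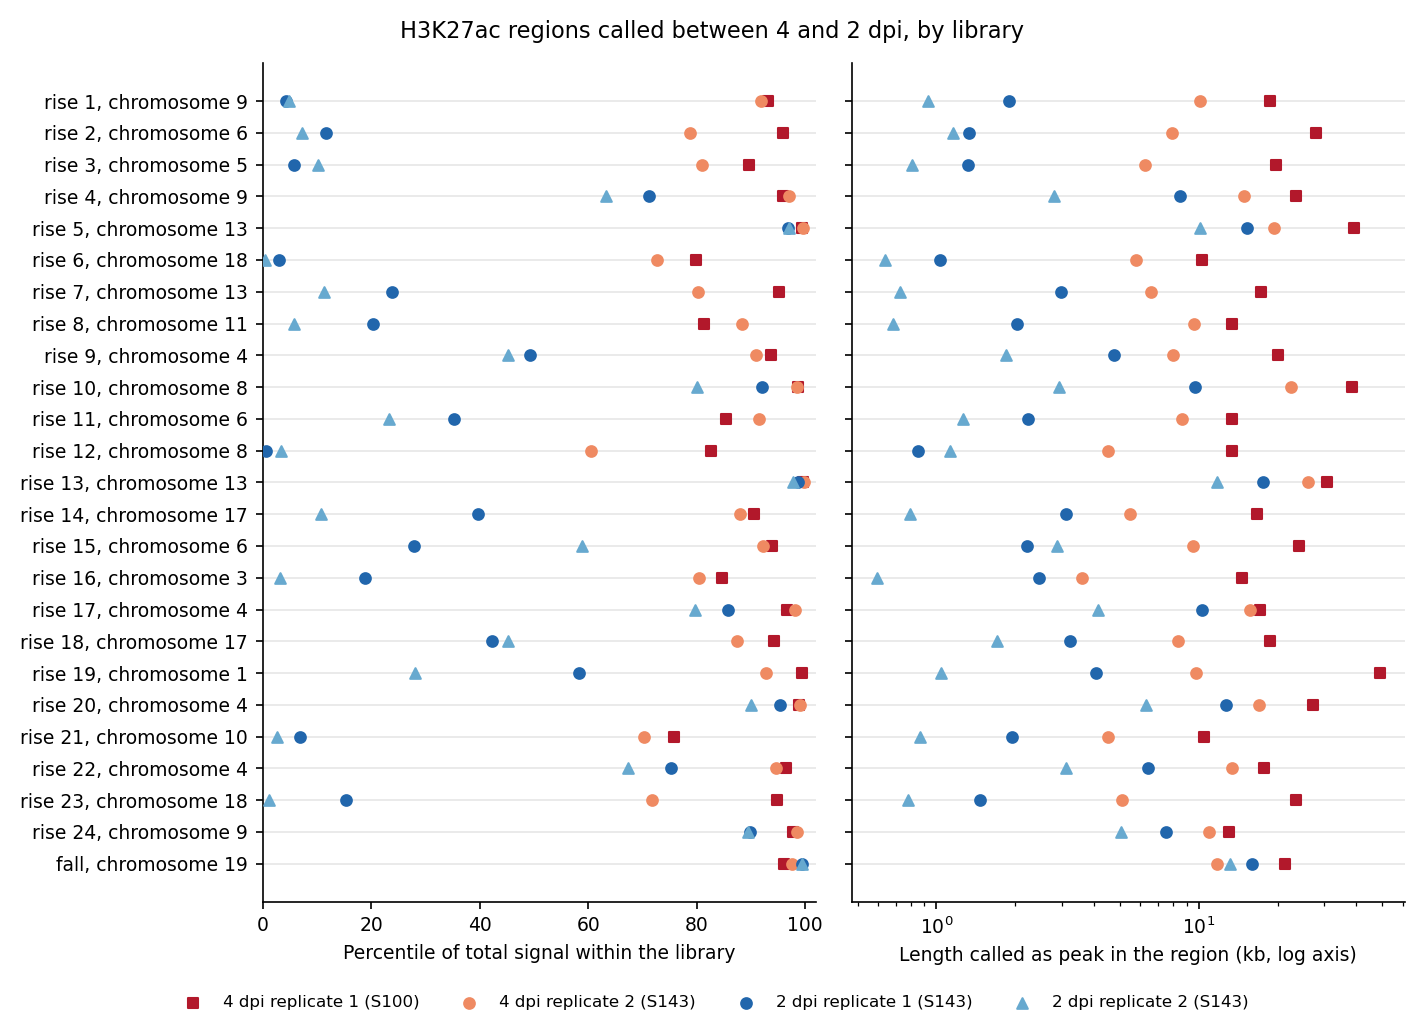
Percentile of total signal among the 13494 regions (left) and length called as peak (right, kb on a log axis) of the 25 H3K27ac regions called in the 4 lists, 1 per row in order of p, with 1 symbol per library. In all 24 rises both 4 dpi libraries lie to the right of both 2 dpi libraries in rank and in called length.

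The clearest rise lay on chromosome 9, from 118430627 to 118449287, at a place that also carries H3K4me3. It stood at percentiles 93.2 and 91.9 in the 4 dpi libraries, against 4.25 and 4.79 in the 2 dpi libraries. Both time points are thus at opposite ends of the ranking, and the replicates lie close together. The shift was 3.14 (SE 0.36, limma adjusted p = 0.00373). Peak length there was 18.7 and 10.1 kb at 4 dpi, against 1.89 and 0.926 kb at 2 dpi. In the S143 lists the matching region from 118443084 to 118447525 shifted by 2.36 but did not pass (limma adjusted p = 0.0704). A second rise followed 37.6 kb further on, from 118486845 to 118510333, at percentiles 95.9 and 97.1 at 4 dpi, against 71.2 and 63.3 at 2 dpi (shift 1.37, limma adjusted p = 0.0289). The next smallest gap between called rises was 877.4 kb, on chromosome 13.

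Some rises stood at nearly the lowest ranks at 2 dpi. On chromosome 8, the region from 121512979 to 121526364, over 10 kb from any H3K4me3, stood at percentiles 82.6 and 60.6 at 4 dpi, against 0.571 and 3.39 at 2 dpi. On chromosome 10, the region from 94185332 to 94195808, at H3K4me3, stood at 75.8 and 70.4 at 4 dpi, against 6.81 and 2.68 at 2 dpi. The shifts of these weak regions, 2.78 and 2.33, did not pass in the S143 lists (2.30 and 2.37, limma adjusted p = 0.198 and 0.0722).

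Other rises were among the strongest regions at both times. On chromosome 13, the region from 13544883 to 13584065 stood at 99.4 and 99.6 at 4 dpi, against 96.9 and 97.0 at 2 dpi. Its shift of 0.73 was 0.71 in the S143 lists (limma adjusted p = 0.0289 and 0.000205). On the same chromosome, the region from 12636339 to 12667467 shifted by 0.63, and by 0.62 in the S143 lists (limma adjusted p = 0.0381 and 0.000569). On chromosome 9, the region from 40228808 to 40241897 stood at 97.7 and 98.5 at 4 dpi, against 89.9 and 89.5 at 2 dpi, with a shift of 0.83, and of 0.98 in the S143 lists (limma adjusted p = 0.0388 and 0.000268). These strong regions led the S143 rises as well. On chromosome 4, the region from 136610260 to 136627995 stood at 96.7 and 98.1 at 4 dpi, against 85.7 and 79.7 at 2 dpi. Its maximum coverage was 149 and 74 at 4 dpi, against 26 and 13 at 2 dpi, on scales that differ between libraries. It rose by 1.00 in the 4 lists and by 1.43 in the S143 lists (limma adjusted p = 0.0381 and 0.00396).

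The remaining rises were spread over the genome. The 24 lay on 12 chromosomes, 4 of them on chromosome 4 and 3 each on chromosomes 6, 9 and 13. Their shifts lay between 0.63 and 3.14 and their adjusted p between 0.00373 and 0.0388. Among the others, a region of chromosome 17 (31250965 to 31267701) stood at 90.6 and 87.9 at 4 dpi, against 39.7 and 10.8 at 2 dpi. One of chromosome 6 (145730427 to 145754487) stood at 94.0 and 92.3 at 4 dpi, against 27.9 and 58.9 at 2 dpi. Both also passed in the S143 lists, with shifts of 2.03 and 1.58 (limma adjusted p = 0.0187 and 0.0372).

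Regions that fell were more numerous with 1 of the 4 dpi libraries left out than in the fit of the 4 lists. The 1 fall of the 4 lists lay on chromosome 19 from 6335221 to 6357141, at H3K4me3. It stood at 96.2 and 97.6 at 4 dpi, against 99.4 and 99.5 at 2 dpi, with a shift of -0.66, and of -0.40 in the S143 lists (limma adjusted p = 0.0381 and 0.0317). Among the 45 falls of the S143 lists, the one with the smallest p lay on chromosome 4 from 55729529 to 55736301, over 10 kb from any H3K4me3. It stood at percentile 6.81 at 4 dpi, against 92.5 and 89.3 at 2 dpi (shift -2.83, limma adjusted p = 5.41e-06). In the 4 lists the merged region is wider, from 55721947 to 55736301, the S100 library placed it at percentile 78.2 and the shift of -1.52 did not pass (limma adjusted p = 0.454). The 4 dpi libraries thus ranked this place differently, though over regions of unlike width.

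Of the 45 falls, 44 had a negative shift in the 4 lists, which hold the same 2 dpi libraries, and 1 was called there. The S100 library ranked the merged regions around some of them high, but these are wider than the falls. It placed those around the falls on chromosome 12 from 100981552 (6.46 kb) and chromosome 5 from 31752920 (5.37 kb) at 85.9 and 84.0. The merged regions run from 100978118 to 100996511 and from 31752632 to 31769694. Their shifts in the 4 lists were -0.75 and -0.16 (limma adjusted p = 0.554 and 0.848). How the S100 library ranks the falls alone was not tested. At other falls it placed the merged region lower, and the shift of the 4 lists did not pass either. On chromosome 10, 2 falls of the S143 lists lay close together, from 93187960 to 93194568 and from 93257245 to 93262387. The first stood at 66.3 at 4 dpi, against 95.8 and 95.1 at 2 dpi, and the second at 50.5 at 4 dpi, against 93.4 and 93.7 at 2 dpi. Their shifts were -1.27 and -1.51 in the S143 lists (limma adjusted p = 0.00196 and 0.00144) and -1.20 and -1.32 in the 4 lists, where the S100 library placed them at 59.5 and 52.7 (limma adjusted p = 0.0545 for both). On chromosome 9, the region from 123764223 to 123769985 stood at 54.4 at 4 dpi, against 94.1 and 91.2 at 2 dpi, with a shift of -1.35, and of -1.24 in the 4 lists (limma adjusted p = 0.00664 and 0.0654).

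Called length moved with these calls. All 24 rises belonged to the widest 25% of regions, of 9629 bp and more, and all 24 were called over more bases in both 4 dpi libraries than in both 2 dpi libraries, which held for 40.8% of all tested regions and 49.7% of the widest 25%. Their median called length was 18.7 and 9.05 kb at 4 dpi, against 3.06 and 1.21 kb at 2 dpi. In the S143 lists the 22 rises were all called over more bases at 4 dpi (40.3% of all tested), and 44 of the 45 falls over fewer (18.1%). Total signal sums coverage over the called bases, so length is a part of the measure. With total signal per called base limma called 0 regions (1005 at an unadjusted p under 0.05), and with the maximum signal none of the 24 rises passed (limma adjusted p from 0.100 to 0.721). The maximum shift was positive at all 24, at 60.9% of the widest 25% and at 49.4% of all tested regions, and the 24 were chosen by a measure of the same libraries. How far peak length as called in each list sets the calls was not tested otherwise.

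Away from H3K4me3, ranks were higher at 4 dpi more often than at H3K4me3. The median shift was -0.15 over the 9440 regions at H3K4me3, 0.20 over the 2502 regions in between, which met no shared H3K4me3 region but lay within 10 kb of some H3K4me3 peak or met one of single lists, and 0.30 over the 1552 regions more than 10 kb away, while it was -0.07 over all. At an unadjusted p under 0.05, 5.21% were higher and 6.88% lower at 4 dpi at H3K4me3, against 15.1% higher and 2.45% lower in the regions over 10 kb away. The S143 lists differed less between these classes, with medians of -0.06, 0.12 and 0.11 and 3.09% higher and 4.92% lower at H3K4me3, against 6.02 and 4.24% over 10 kb away. Of the 24 rises 18 met an H3K4me3 peak of at least 1 list, as did 11076 of the 13494 tested regions. By class 8 were at H3K4me3, where a region of all 4 H3K4me3 lists is needed, 11 in between and 5 over 10 kb away. That is 33.3, 45.8 and 20.8%, beside 70.0, 18.5 and 11.5% of all tested regions. Of the 22 rises in the S143 lists 10, 10 and 2 fell in these classes, and of the 45 falls 25, 10 and 10, beside 64.7, 23.5 and 11.9% of the regions tested there.

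**Figure D4:**
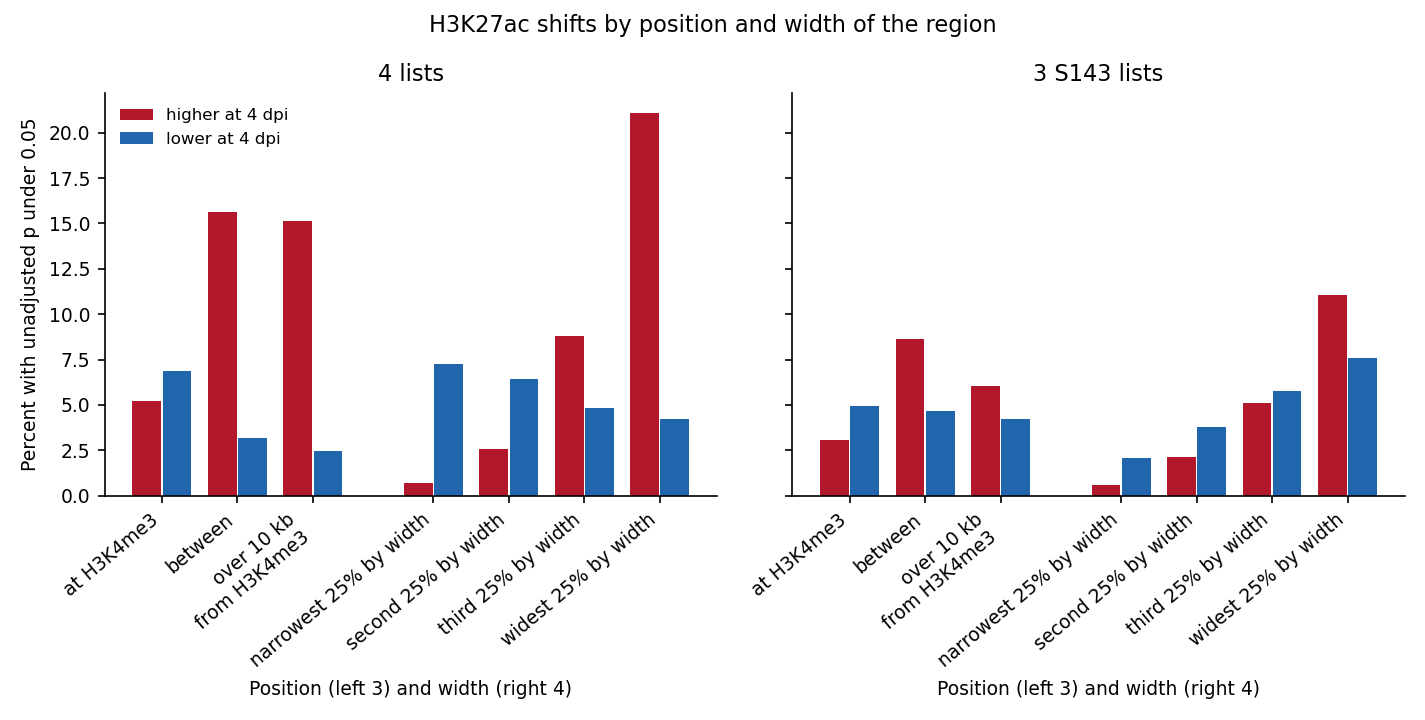
Percent of H3K27ac regions (y axis) higher or lower at 4 dpi at an unadjusted limma p under 0.05, by position relative to H3K4me3 (at a shared region, in between, or over 10 kb away) and by width in classes of 25% (x axis), in the 4 lists (left) and the 3 S143 lists (right). Away from H3K4me3 and in the widest 25% more regions are higher than lower, 15.1 against 2.45% and 21.1 against 4.24% in the 4 lists, and the gap is smaller in the S143 lists, at 6.02 against 4.24% and 11.1 against 7.56%.

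Width divided the shifts in the same way, but in the 4 lists width is not independent of the shift. The median tested region there was 6002.5 bp wide. Median called length was 5.83 kb in the S100 library and 2.57 kb in the other 4 dpi library, against 2.77 and 1.76 kb at 2 dpi. Region width thus mostly follows 1 of the compared 4 dpi libraries, and total signal is summed over called bases. In the narrowest 25% of the 4 lists 0.682% of regions were higher and 7.23% lower at an unadjusted p under 0.05, and in the widest 25% 21.1% were higher and 4.24% lower. In the S143 lists the shares were 0.597 and 2.06% in the narrowest and 11.1 and 7.56% in the widest 25%. There, width went with calls in both directions, as 21 of 22 rises and 36 of 45 falls lay in the widest 25%.

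H3K18la, the lactylation of lysine 18 of histone H3, was measured in its own 4 libraries of another batch, which had no part in choosing H3K27ac regions. The paper states that its marks were profiled in the same samples, so the cells behind the 2 marks are not independent. Of the 24 H3K27ac rises 21 met a region called in all 4 H3K18la lists (87.5%, beside 77.4% of the widest 25% and 45.7% of all tested regions). The H3K18la shift was positive at 20 of these 21, with a median of 0.93, beside 52.3% positive and a median of 0.02 in the widest 25%. At 4 of them H3K18la itself rose past the threshold, which is every H3K18la rise that limma called among its 9325 regions (0.0429%). Of these, the chromosome 9 region starting at 40228808 had an H3K18la shift of 1.23, the chromosome 6 region starting at 145730427 one of 1.85, the chromosome 13 region starting at 13544883 one of 0.56, and a rise of chromosome 8 (122854903 to 122893226) one of 0.83. In H3K18la 7 regions fell (0.0751%). At the clearest H3K27ac rise on chromosome 9, H3K18la shifted by 2.33 and did not pass (limma adjusted p = 0.0532).

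With the S143 lists H3K18la moved with H3K27ac in both directions. All 22 rises met a shared H3K18la region, as did 75.1% of the widest 25% and 44.6% of all tested regions. The H3K18la shift was positive at 20 of the 22, with a median of 0.61. Of the 45 falls 28 met a shared H3K18la region (62.2%). The shift was positive at 4 of these 28, with a median of -0.46. Among all tested regions that met one it was positive at 49.6%, and at 51.1% in the widest 25%. At one of the chromosome 10 falls, from 93187960 to 93194568, H3K18la fell as well (shift -0.99, limma adjusted p = 0.0214). Across all regions with both marks, the shifts of H3K27ac and H3K18la correlated with r = 0.28 over 6173 regions of the 4 lists and 0.34 over 7169 of the S143 lists. Regions over 10 kb from H3K4me3 gave 0.38 over 876 and 0.39 over 1055 regions. These are correlations across regions, which share the libraries and are not independent.

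**Figure D5:**
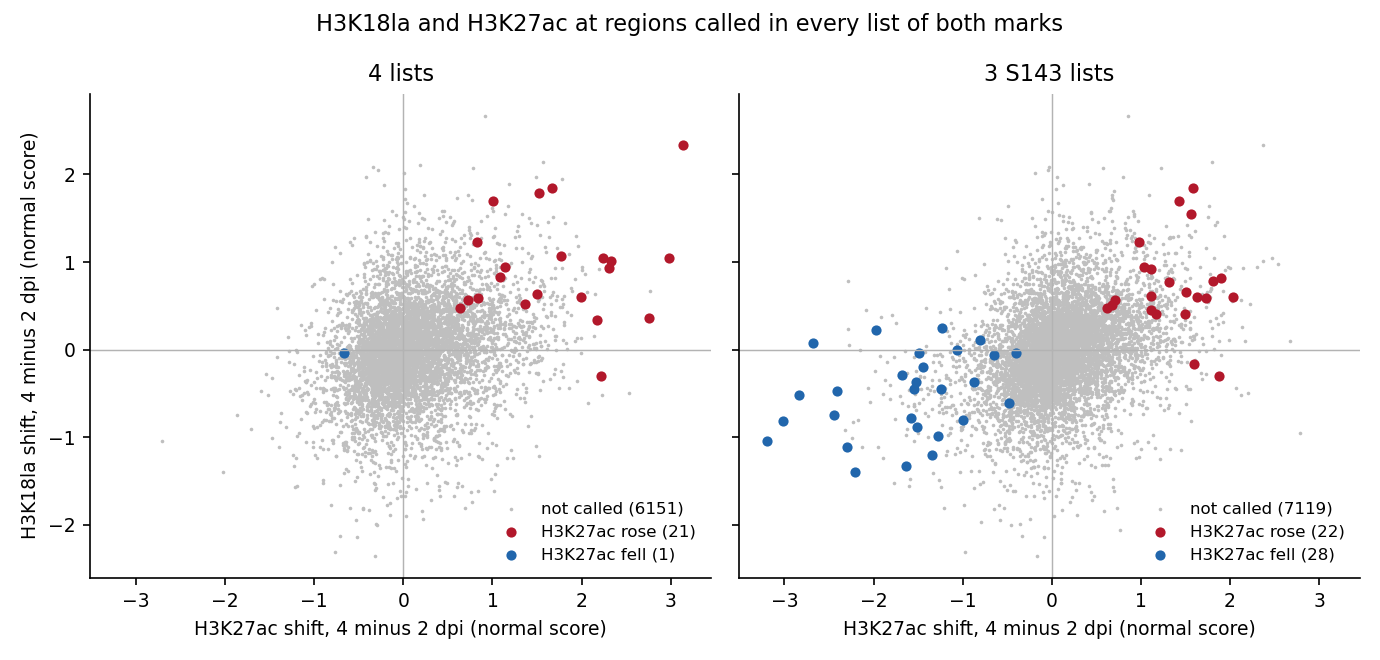
H3K18la shift (y axis) against H3K27ac shift (x axis), both in normal score at 4 minus 2 dpi, with 1 point per H3K27ac region that met a region of all 4 H3K18la lists, for the 4 lists (left) and the 3 S143 lists (right). Of the called rises 20 of 21 and 20 of 22 lie above 0 on the H3K18la axis, and of the falls of the S143 lists 4 of 28 do.

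H3K4me3 moved with H3K27ac at single places and not across the genome. Over the 9440 regions with both marks, the shifts correlated with r = -0.08, and with r = -0.01 over 10401 regions of the S143 lists. The H3K4me3 shift was positive at 52.8% of the 9440 regions and at 42.6% of those in the widest 25%. Over the 10401 regions of the S143 lists it was positive at 52.2%. Among the 8 H3K27ac rises at H3K4me3, that mark was higher at 7 and passed at 5. In that comparison 7.78% of all H3K4me3 regions rose and 8.07% fell. The largest of the 5 was on chromosome 4 from 136610260 to 136627995 (H3K4me3 shift 1.13, limma adjusted p = 6.78e-05). Ranked by maximum signal, the median H3K4me3 shift at the 8 rises was -0.0083 in place of 0.46. Of the 22 rises of the S143 lists 10 met H3K4me3, which was higher at 9 and passed at 5. At the 25 falls of the S143 lists with H3K4me3, it was positive at 6 and fell past the threshold at 11, among them the region on chromosome 9 from 123764223 to 123769985 (shift -0.94, limma adjusted p = 0.000297). At the 1 fall of the 4 lists, on chromosome 19, H3K4me3 fell too (-0.67, limma adjusted p = 0.00937).

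H3K27me3 shared few of these regions, but a larger share of the rises than of all tested regions. Of the 24 rises 3 met a region of all 4 H3K27me3 lists (12.5%, beside 5.42% of the widest 25% and 4.92% of all tested). Their H3K27me3 shifts ran from -0.66 to 0.29 and none passed the threshold. In that comparison 0.892% of H3K27me3 regions rose and 0.0532% fell. Of the 22 rises of the S143 lists 3 met one (13.6%, beside 2.59% of the widest 25% and 3.25% of all tested). Their shifts ran from -1.44 to 0.29 and none passed the threshold. Of the 45 falls of the S143 lists 1 met one (2.22%). Whether these shares differ was not tested. At the clearest rise on chromosome 9 the H3K27me3 shift was -0.49 (limma adjusted p = 0.0676). Over the 664 regions with both marks, the shifts correlated with r = 0.06, and with -0.10 over 522 regions of the S143 lists. At the 2527 gained H3K27ac regions, H3K18la was called in both 4 dpi libraries and neither 2 dpi library at 76 (3.01%) and the reverse at 30 (1.19%), while over all 43336 regions these were 0.653 and 1.79%. At the 305 lost regions they were 0 and 16 (5.25%). With the S143 lists they were 131 (1.78%) and 84 (1.14%) of the gained regions and 3 (0.229%) and 70 (5.34%) of the lost regions. Over all regions there they were 0.908 and 2.37%. At the lost regions of the 4 lists H3K4me3 went the other way, with 18 (5.90%) and 0. The gained regions held 47 (1.86%) and 4 (0.158%) for H3K4me3, and all regions 1.49 and 0.365%. With the S143 lists H3K4me3 gave 42 (3.21%) and 11 (0.840%) of the lost and 107 (1.45%) and 11 (0.150%) of the gained regions, beside 1.91 and 0.437% of all.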

How the data were processed

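CUT&Tag peaks were called by the authors in each library with SEACR 1.3 in stringent mode. Before that the submitters' processing notes list Trim Galore 0.6.6 for trimming, Bowtie2 2.4.4 as the aligner, and SAMtools 1.13 with bedtools 2.30 for sorting and coverage. The deposited signal, total and maximum coverage per peak, was not normalised by the authors. Labels and list names give GRCm39, which was used for positions, although the methods name mm10 for the alignment. The annotation and genome at hand were of GRCm38, and coordinates were not converted. Therefore promoters, gene lists, cell type markers and sequences were not analysed here, and genes were not named. Columns of the authors' own comparisons are not in the lists.

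Peaks on 21 chromosomes were used, merged where they overlapped by at least 1 bp. A region's signal was summed over its peaks, ranked within a library, and turned into the normal score of (rank - 0.5) over the number of regions. Regions called in every list were tested with limma 3.58.1 (R 4.3.3, trended and robust variance, Benjamini-Hochberg adjustment). The S143 lists were merged and tested afresh. The other marks were fitted alone in the same way. Two-sided exact permutation tests compared list measures (Python 3.11.15, scipy 1.17.1). The scripts were tested on simulated data. The study calls the libraries of a time point biological replicates.

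Named were all called regions with smallest p first, up to 25 per direction, the 10 with the smallest p per direction in the S143 fit, and the 6 gained and 6 lost regions with the highest lower percentile; positions are printed for those that carry a statement. The members, lists and tests were chosen with earlier results of these data known. Alternatives were other rank measures, scales, variance models, filters, list lengths, merging and leaving out each library. The fits of the S143 lists by maximum signal and by plain variance, and S143 lists of equal length, were added after seeing the data.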

Additional observations from a re-analysis of the deposited data

Results flagged for a closer look

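Peaks on the mitochondrial genome, which no comparison used, held 0.0613 and 0.251% of the peak signal of the 4 dpi lists (S100 and S143), against 0.232 and 0.356% of the 2 dpi lists. They are given because they are signal outside the main measurement. With 2 libraries per time point, single libraries were not tested as outliers.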

How the results depend on the processing

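The calls of the 4 lists (24 rises, 1 fall) depended on the fit. Rises numbered 64 with log2 of median-scaled signal, 44 with regions of 3 of 4 lists, 5 with the top 75% of peaks, and 0 with maximum signal, with signal per called base and with plain variance. Falls numbered 4, 2 and 0 in the first 3 of these fits and 0 in the last 3, and 2 with lists of equal length. Without 1 library they ranged over 22 to 279 rises and 0 to 45 falls. Fits without a 2 dpi library placed full weight on the pooled variance. In the S143 lists maximum signal gave 1 rise and 1 fall, and plain variance 0 rises and 0 falls (1186 regions at an unadjusted limma p under 0.05). The cause was not tested. Of the 25 called regions every one kept its direction in every fit that tested it, except 2 rises with signal per called base, the one of chromosome 11 (83419548 to 83434047) at -0.0892 and the one of chromosome 8 (122854903 to 122893226) at -0.39. The median H3K4me3 shift at the rises was -0.0083 with maximum signal.

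Gained and lost regions (2527 and 305) were 1480 and 537 with lists of equal length and 4325 and 1627 with S143 lists of equal length. Without 1 library they ranged over 3032 to 16049 and 824 to 2595, where fewer lists are needed for a gain or a loss. Differences in peak number, width, covered length and share at H3K4me3 kept their sign in every alternative run, but not their size. Without 4 dpi replicate 1 the difference in median width was 126 bp in place of 1454 bp. That in covered length was 13.1 Mb in place of 83.1 Mb. On both measures the S143 list of 4 dpi lay between the 2 dpi lists.

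Replicate numbers pair no libraries, since the mice differ and the deviations of same-numbered libraries correlated with r = 0.09 over 2 pairs. With the replicate block, 447 regions rose and 134 fell. The planned promoter windows and gene lists were not run.

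Depth is unknown, groups hold 2 libraries, and the exact permutation test of 2 against 2 cannot go below p = 0.333. Gains and losses rest on the peak threshold of each list and say nothing of absence. Batch and time cannot be told apart for 4 dpi replicate 1, and the S143 fit rests on 1 library at 4 dpi. Regions were defined by all lists merged, so their edges mostly follow the S100 library.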

Other observations

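Neighbouring H3K27ac regions shifted alike more often when close together. Adjacent regions under 10 kb apart had shifts correlating with r = 0.26 over 3125 pairs, with 59.3% of pairs of the same sign, and those over 200 kb apart with r = 0.05 over 2209 pairs and 52.2%. In the S143 lists the values were 0.23 over 4709 pairs and 0.05 over 2239 pairs. The pairs share libraries and regions, so these are descriptions.

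On the X chromosome 233 regions were called in all 4 lists, and limma called none of them (1 higher and 6 lower at an unadjusted p under 0.05). Their median shift was -0.27, and -0.01 over the 263 regions of the S143 lists, beside -0.07 and -0.01 over all regions. The X regions of the 4 lists were narrow, with a median of 3519 bp against 6002.5 bp over all. In the narrowest 25% of all regions the median shift was -0.35. Whether X regions differ from others of the same width was not tested.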
